A study of Mus musculus with 4 samples.

Results

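The LIM homeodomain genes examined here were Lhx1, Lhx2, Lhx3, Lhx4, Lhx5, Lhx6, Lhx8, Lhx9, Isl1 and Isl2, 10 of the 22367 protein-coding genes of the GENCODE M1 annotation of the mouse mm9 assembly. For each gene, the REST-bound regions were taken whose midpoint lay in the gene or within 20 kb of any of its transcription start sites (TSSs), and for a gene without such a region the nearest one was taken. By this rule 5 of the 2504 listed regions belonged to 4 of the genes: 2 to Lhx3 and 1 each to Lhx2, Lhx4 and Lhx5. The regions came from chromatin of wild type C57BL/6 mouse embryonic stem cells (ESCs) of the single line N6, which were grown with leukemia inhibitory factor on irradiated fibroblasts and moved onto gelatin to remove these before harvest, and in which REST was immunoprecipitated with a rabbit antibody against its C-terminal part (ChIP-seq). The series comprised 4 samples. Its other samples, H3K27me3 ChIP-seq of wild type (N6) and REST-/- (N8) ESCs and input DNA, were not analysed here, so background was not measured. None of them was REST ChIP-seq of REST-/- cells, so loss of binding there could not be measured in this series. DNA from the replicates had been pooled into 1 library, so there was no spread between replicates, and every value below is a description of 1 list. Each region carried only a rank by enrichment, where 1 is the most enriched, and the list did not give the number of reads in a region.

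LIM homeodomain proteins are transcription factors that carry paired LIM zinc fingers, through which they bind the adaptor Ldb1 and one another, and a homeodomain, through which they bind DNA. Their combinations specify neurons: Lhx3 with Isl1 specifies spinal motor neurons, whereas Lhx3 without Isl1 directs the neighbouring V2 interneuron fate. REST (RE1-silencing transcription factor) is a zinc finger repressor of neuronal genes outside the nervous system, and it recognises the RE1, a DNA element made of a left and a right part.

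The RE1 consensus was derived from the most enriched regions that belonged to none of the 10 genes. Its layout was set beforehand: a left element of 9 bases, 2 free bases and a right element of 10 bases, 19 defined bases in all. The RE1 or the elements found in each of the 5 assigned regions show how the genes divided. They ran from an RE1 without mismatch at Lhx3 to matches to 1 element at Lhx2 and Lhx4. Capitals mark bases equal to the consensus, and each sequence was read 5′ to 3′ on the strand of the match from the mm9 genome (NCBIM37).
RE1 consensus: TTCAGCACCNNGGACAGCGCC
Lhx3 promoter, rank 257: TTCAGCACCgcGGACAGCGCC
Lhx5 upstream, rank 536: TTCAGCACCgcGGACAGCtCC
Lhx3 intron, rank 567: TTCAGCACCcaggcacGGACAGCGCC
Lhx4 intron, rank 944, left element: TTCAGCACt
Lhx2 exon, rank 1498, right element: GGACAGCtCC

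Substitutions are given as the consensus base, its position counted from 1 at the 5′ end of the consensus, and the base found. The Lhx5 match carried G19T, as did the right element at Lhx2, and the left element at Lhx4 carried C9T. Both Lhx3 matches had every defined base of the consensus, but in the intron the elements stood 7 bases apart in place of 2.

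Of the 10 listed genes, 4 (40%) had a region, beside 10.1% of all protein-coding genes under the same rule. That share was 2269 of 22367, with an exact 95% Clopper-Pearson interval of 9.75 to 10.5% that covers counting error only. The interval treats genes as independent, although the 2269 genes shared 1845 regions, so that 1 region could belong to more than 1 gene. All 4 were also counted when only regions within 20 kb of a TSS were taken, beside 8.84% of all genes. Lhx3 was the only one with more than 1 region, beside 1.48% of all genes, and the only one with a region within 1 kb of a TSS, beside 1.83%. Lhx3 and Lhx5 were the 2 genes with a full RE1, a match with at most 5 mismatches, in an assigned region, beside 5.81% of all genes. No test was made over the 10 genes, since they were chosen with earlier results of these data known. Lmx1a and Lmx1b, LIM homeodomain genes that the list of 10 leaves out, had no region by the same rule.

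**Figure D1:**
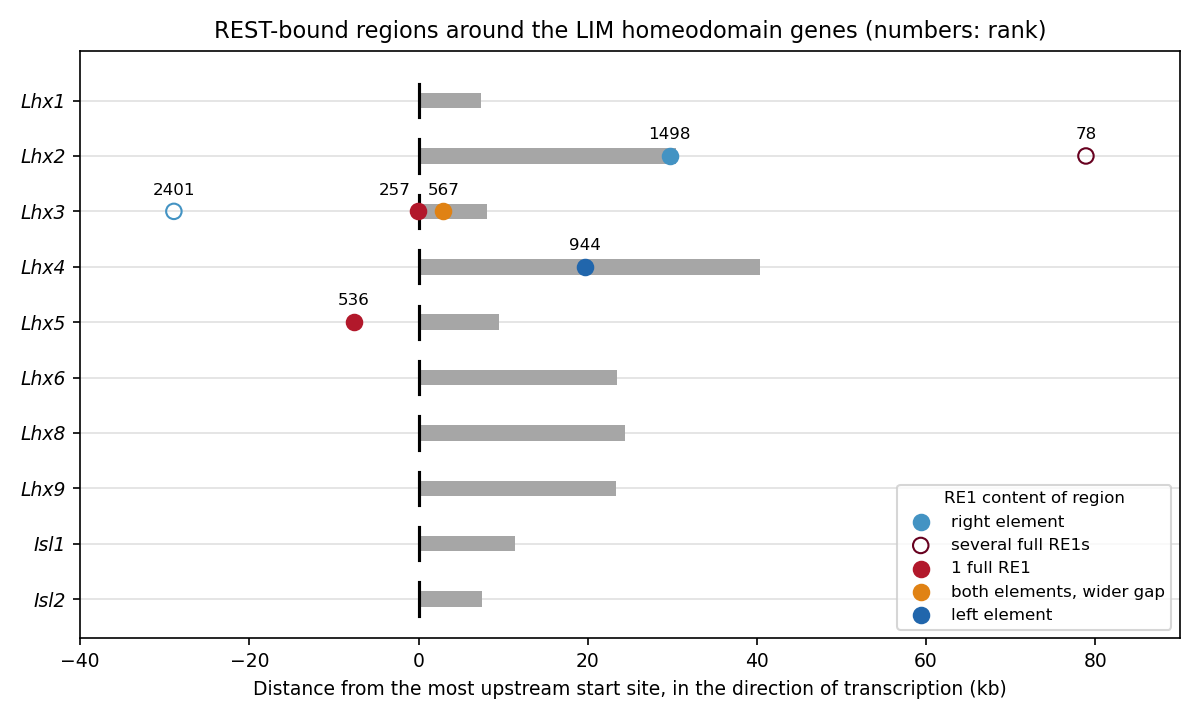
Position of REST-bound regions along the 10 genes, each drawn as a grey bar from its most upstream start site (black tick), with distance in kb in the direction of transcription. Filled circles are assigned regions and open circles regions beyond the 20 kb limit, numbered by rank and coloured by RE1 content; of the 6 genes with no circle in the window, Lhx1 had the nearest region, at 136.779 kb.

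Lhx3, which is required for pituitary development and for motor neuron and V2 interneuron identity, held the best ranked region of the family. The gene (ENSMUSG00000026934.8) lay at chr2:26055732-26063769 on the minus strand. The region, chr2:26063671-26064013, had rank 257 (the top 10.3% of the list) and its midpoint lay 0.073 kb upstream of the start of transcript Lhx3-002, which fell inside the region. Of all protein-coding genes, 0.376% had a region nearer to a start site. The RE1, at chr2:26063792-26063812, was on the strand of the gene and occupied bases 23 to 43 upstream of that start. The start of the other protein-coding transcript, Lhx3-001, lay 1.747 kb downstream of the midpoint.

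The sequence is shown on the strand of the gene to place the RE1 (capitals) against the start site, which is the next base after its 3′ end. It spans chr2:26063770-26063871.
Lhx3 promoter: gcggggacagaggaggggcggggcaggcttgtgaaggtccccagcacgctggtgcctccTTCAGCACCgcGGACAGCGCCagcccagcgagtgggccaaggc

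An RE1 without mismatch was rare. The mm9 genome held 12, and all 12 lay in listed regions. Their ranks ran from 257 to 1947 with a median of 427.5, and the Lhx3 region had the best rank of them, next to one at rank 258 that was nearest to Rapgef1. Only 2 of the 12 lay within 1 kb of a TSS of a protein-coding gene, those at Lhx3 and Unc79, and 4 lay beyond 20 kb. Ranks were not ordered by the match alone. The region of rank 1 had a best match with 4 mismatches, and regions with 7 mismatches reached rank 8. The consensus was itself derived from the best ranked regions, so the share of its exact matches in the list was not independent of the list.

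The second Lhx3 region, chr2:26060713-26060989, had rank 567 (top 22.6%) and lay in intron 1 of 5 of both protein-coding transcripts, 1.244 kb downstream of the start of Lhx3-001 and 2.918 kb downstream of that of Lhx3-002. It held no full RE1: the best match of the canonical spacing had 6 mismatches. Its elements, at chr2:26060815-26060840, ran opposite to the gene, so that they read as the reverse complement in the direction of the gene. The centres of the RE1 at the promoter and of this split RE1 were 2.9745 kb apart. The stretch chr2:26060757-26060896 is printed on the strand of the gene, with the right and then the left element in capitals and the wider spacer between them.
Lhx3 intron 1: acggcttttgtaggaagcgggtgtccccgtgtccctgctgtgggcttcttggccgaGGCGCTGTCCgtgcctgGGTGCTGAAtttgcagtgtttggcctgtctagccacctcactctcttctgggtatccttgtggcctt

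Of the 2504 regions, 88 (3.51%) had both elements at a wider gap, of 3 to 20 bases and with at most 1 mismatch in each, and no full RE1. The gap was 7 bases in 22 of these and 8 bases in 27, and the largest gap was 14 bases. The Lhx3 region ranked 37th among the 88, whose median rank was 765. Exact left and right elements at a gap of 3 to 20 bases occurred 11 times in the genome, with gaps of 7 to 10 bases. All 11 were in listed regions, from the best ranked of which the consensus had been derived. Among protein-coding genes, 10 had an assigned region with an RE1 without mismatch and 14 had one with an exact pair at a wider gap. Lhx3 was the 1 gene with both.

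Lhx4, the paralogue of Lhx3 that acts with it in pituitary and motor neuron development, had a weaker match. The gene (ENSMUSG00000026468.6) lay at chr1:157548827-157589157 on the minus strand, and its region, chr1:157569365-157569673, had rank 944 (top 37.7%). The midpoint was in intron 2 of 5, 19.638 kb downstream of the TSS, so that it was also inside the 20 kb limit. The left element, at chr1:157569487-157569495, lay 28 bp from the midpoint and opposite to the gene. The best full match lay at another site, chr1:157569456-157569476, and had 6 mismatches. Regions with a left element but no full RE1 and no pair at a wider gap numbered 274 (10.9%), with a median rank of 1483. The Lhx4 region was the 80th of them. By the same criteria a left element was found in 6.48% of flanking windows that lay 2 kb to each side of the regions. The 2 shares are not on like terms. A full RE1 had first taken out 58.1% of regions but only 0.923% of flanking windows.

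**Figure D2:**
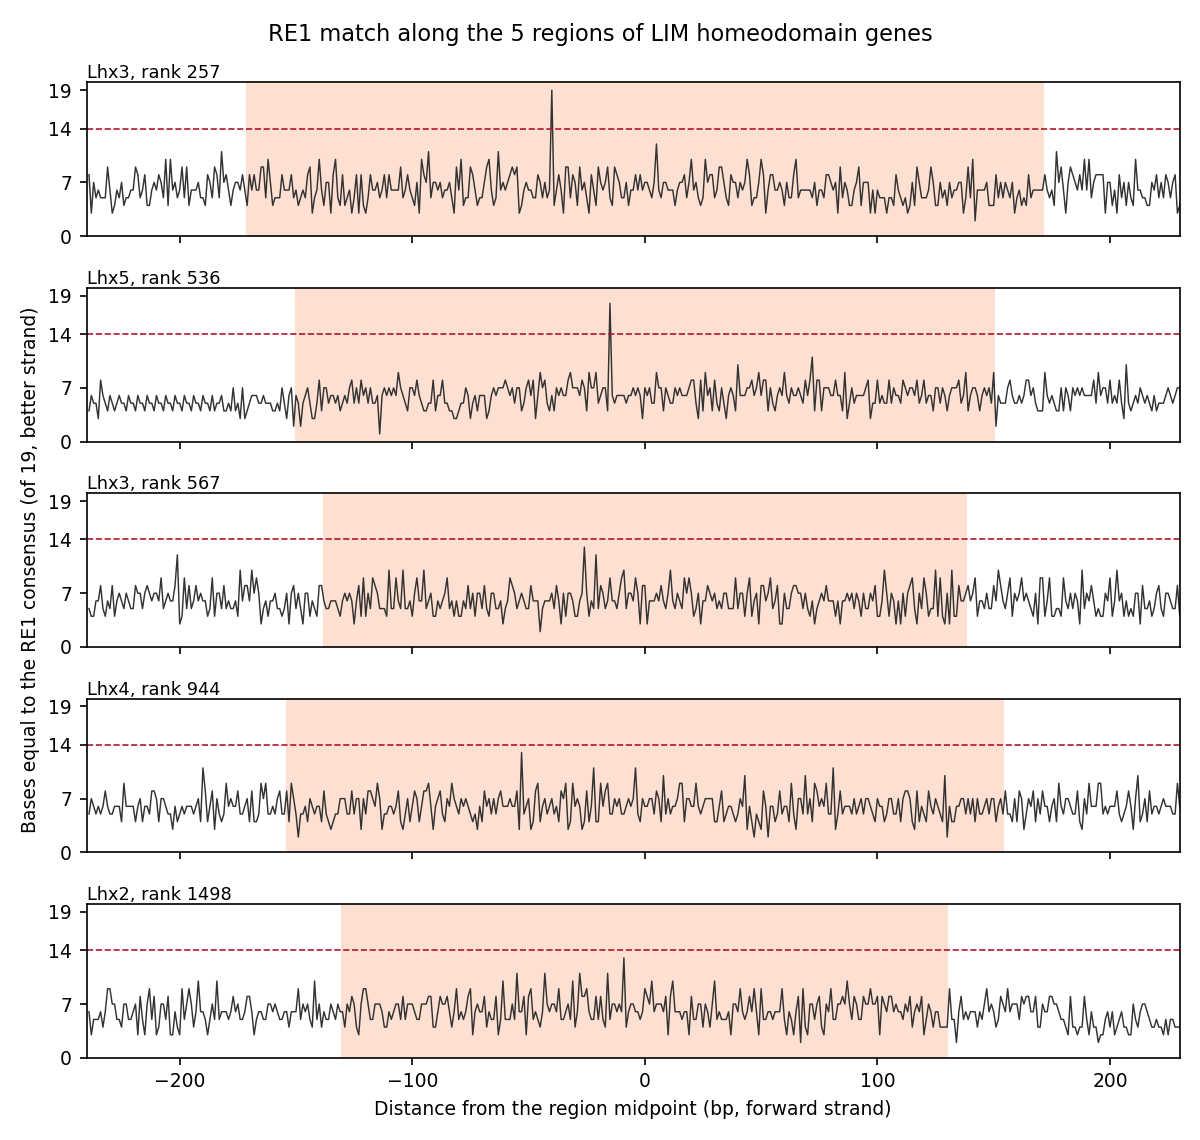
Number of the 19 defined RE1 bases matched at each position along the 5 assigned regions, on the better strand, against distance in bp from the region midpoint on the forward strand; shading marks the deposited region and the dashed line the limit for a full RE1, 14 bases. The line reaches 19 at the Lhx3 region of rank 257 and 18 at the Lhx5 region, and 13 at most in the regions of ranks 567, 944 and 1498.

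Lhx5, which takes part in hippocampal and spinal interneuron development, had the second best ranked region of the family. The gene (ENSMUSG00000029595.5) lay at chr5:120881895-120891466 on the plus strand. The region, chr5:120874070-120874370, had rank 536 (top 21.4%), and its midpoint was 7.675 kb upstream of the TSS, outside the gene. Its RE1, at chr5:120874195-120874215, was on the strand of the gene and 15 bp from the midpoint. The next start site of another protein-coding gene, that of Sdsl, was 43.149 kb away. The region was the 33rd of 83 whose best match had 1 mismatch, and their median rank was 703. The stretch chr5:120874135-120874274 is shown on the strand of the gene to place its RE1, in capitals, in its surroundings.
Lhx5 upstream: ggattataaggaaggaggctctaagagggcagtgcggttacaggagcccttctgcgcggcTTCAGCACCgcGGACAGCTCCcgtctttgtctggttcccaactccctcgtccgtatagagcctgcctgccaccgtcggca

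Lhx1, the paralogue of Lhx5 and a gene of the head organiser and the kidney, had no region within the limit. Its nearest, chr11:84475562-84475842 with rank 406, lay 136.779 kb upstream of the TSS, and 33.3% of protein-coding genes had a nearer one. Lhx1 was itself the nearest protein-coding gene to that region, with Aatf at 148.678 kb. Its RE1 also had 1 mismatch, C20A, and the region was the 22nd of the 83. Further out lay regions of ranks 1014, 828 and 439, from 198.965 to 204.014 kb from Lhx1, each with 1 full RE1 and each nearest to Mrm1. Within 500 kb of its most upstream TSS Lhx1 had 6 regions, beside a median of 1 over protein-coding genes, and within 100 kb it had 0.

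Lhx2, which acts in the forebrain, the eye and hair follicle stem cells, had the lowest ranked of the assigned regions. The gene (ENSMUSG00000000247.4) lay at chr2:38194801-38225253 on the plus strand. The region, chr2:38224377-38224637, had rank 1498 (top 59.8%) and lay in coding exon 5 of 5 of transcript Lhx2-001. Its midpoint was 16.455 kb downstream of the nearest TSS and 29.706 kb downstream of the most upstream one. The right element, at chr2:38224481-38224490, was opposite to the gene. The best full match, at chr2:38224488-38224508 on the strand of the gene, did not use that element and had 6 mismatches. A right element alone was found in 252 regions (10.1% of the list, median rank 1658.5), of which the Lhx2 region was the 104th, and in 0.762% of flanking windows. As for the left element, a full RE1 had first taken out a larger share of the regions than of the flanking windows.

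Well beyond the limit, a region at chr2:38273533-38273886 had rank 78 (top 3.12%), better than any of the 5 assigned regions. It lay 65.6575 kb downstream of the nearest Lhx2 TSS, beyond the 3′ end of the gene, and Lhx2 was still the nearest protein-coding gene, followed by Nek6 at 93.4535 kb. It held 2 full RE1s, with 3 and 4 mismatches, on opposite strands. None of the other 9 genes had a region with 2 full RE1s within 100 kb. Of these genes, only Lhx3, Lhx4 and Lhx5 had any region within 100 kb, so the rest could not show one. The share of all protein-coding genes with such a region within 100 kb is not given here, so no contrast is drawn. The sequences of both RE1s at Lhx2 are shown.
Lhx2 downstream, chr2:38273687-38273707, minus strand: ccCAGCACCcaGGACAGCtCC
Lhx2 downstream, chr2:38273649-38273669, plus strand: aTCAGaACCacGGACAGCaaC

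Regions with several full RE1s numbered 96 (3.83%) and had a median rank of 81.5, beside 1036.5 for the 1358 regions with 1 full RE1. The next region beyond the limit at Lhx3, of rank 2401, lay 28.9255 kb upstream of it but 0.2135 kb from a start site of Qsox2, and held a right element only. Just inside the limit was the Lhx4 region, at 19.638 kb, which was also within the gene.

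Lhx9, the paralogue of Lhx2 with roles in gonad and limb development, had the most distant nearest region, of rank 686, at 2163.96 kb, and 90.4% of protein-coding genes had a nearer one. It was nearest to Zfp281. Lhx6 and Lhx8, which act in cortical interneurons and in cholinergic neurons of the ventral forebrain, had nearest regions at 1145.57 and 489.247 kb. The first, of rank 1933, was nearest to Traf1, and the second, of rank 1138, to BC007180. Isl1, a gene of motor neurons, pancreatic islets and the second heart field, had its nearest region at 1056.94 kb (rank 1731, nearest to Itga1). Isl2, which acts in motor neurons and retinal ganglion cells, had its nearest at 512.302 kb (rank 2122). That region lay 0.1885 kb from a start site of Chrna3, a nicotinic acetylcholine receptor subunit gene. None of these 5 genes had a region within 100 kb of its most upstream TSS, as was the case for 74.3% of protein-coding genes, and Lhx6, Lhx9 and Isl1 had none within 1000 kb, as was the case for 22.1%.

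**Figure D3:**
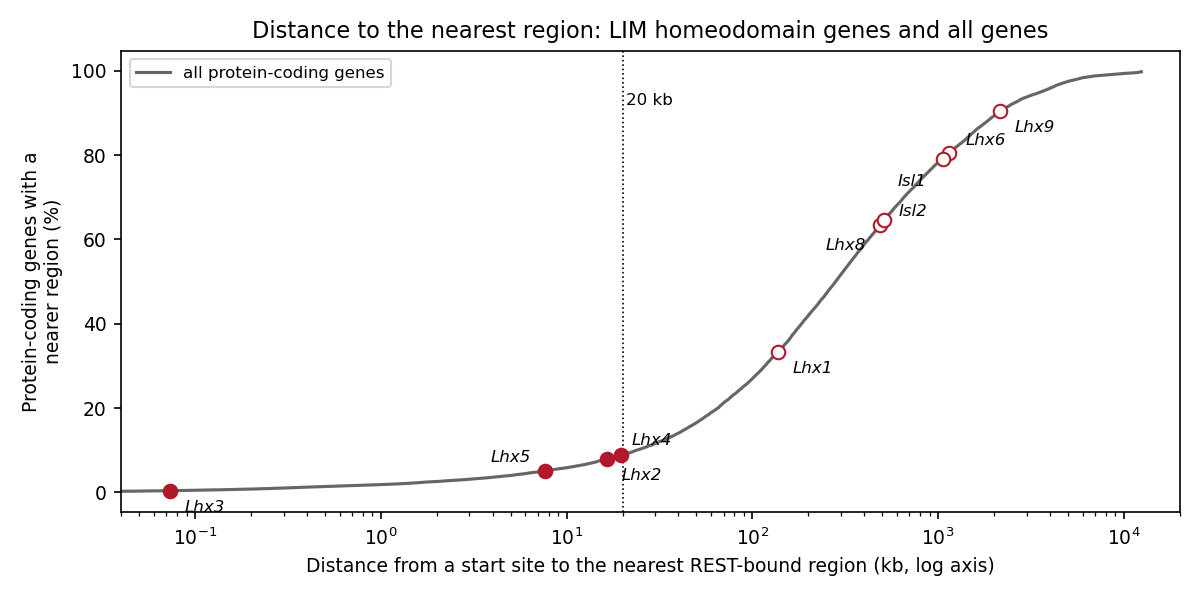
Distance from a start site to the nearest REST-bound region (kb, log axis) against the percentage of protein-coding genes with a nearer region; the line gives all protein-coding genes and the circles the 10 LIM homeodomain genes, filled where a region was assigned. The 4 assigned genes lie at or below 8.76%, a low value that follows from the 20 kb limit of the rule. Lhx1 lies at 33.3%, and the other 5 genes between 63.5 and 90.4%.

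Over all protein-coding genes the quartiles of this distance were 89.1 and 838 kb and the median was 280.755 kb. In the paralogue pairs, Lhx3 and Lhx4 both had a region, Lhx5 and Lhx2 had one where Lhx1 and Lhx9 did not, and in the pairs of Lhx6 with Lhx8 and Isl1 with Isl2 neither gene had one. The genes with a region were 8.038 to 40.331 kb long and those without were 7.445 to 24.356 kb long, beside a median of 15.427 kb over protein-coding genes. The longest of the family, Lhx4 (40.331 kb) and Lhx2 (30.453 kb), both had their region inside the gene, and the part of gene length in the counts was not tested.

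The RE1s of the nearest regions of Lhx1, Lhx8 and Isl1 are given, since these 3 were close to the consensus although far from the gene named.
Region nearest to Lhx1, chr11:84475664-84475684, plus strand: TTCAGCACCggGGACAGCGaC
Region nearest to Lhx8, chr3:154482846-154482866, plus strand: TTCAGCACCgcGGACAGCtCt
Region nearest to Isl1, chr13:116042946-116042966, minus strand: TTCAGCACtgaGGACAGttCC

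The Lhx8 match differed from the consensus by G19T and C21T and the Isl1 match by C9T, C18T and G19T. The nearest regions of Lhx6, Lhx9 and Isl2 each had a best match with 5 mismatches. G19T thus occurred in the RE1s of the Lhx5, Lhx8 and Isl1 regions and in the right element of the Lhx2 region. Position 19 was among the least fixed of the consensus, with 0.365 bits of information beside 1.96 bits at position 8. The free positions 10 and 11, which were not counted in a match, had more, with 0.427 and 0.451 bits. Position 19 held the mismatch in 22 of the 83 regions with 1 mismatch (26.5%), followed by position 20 in 16 (19.3%).

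**Figure D4:**
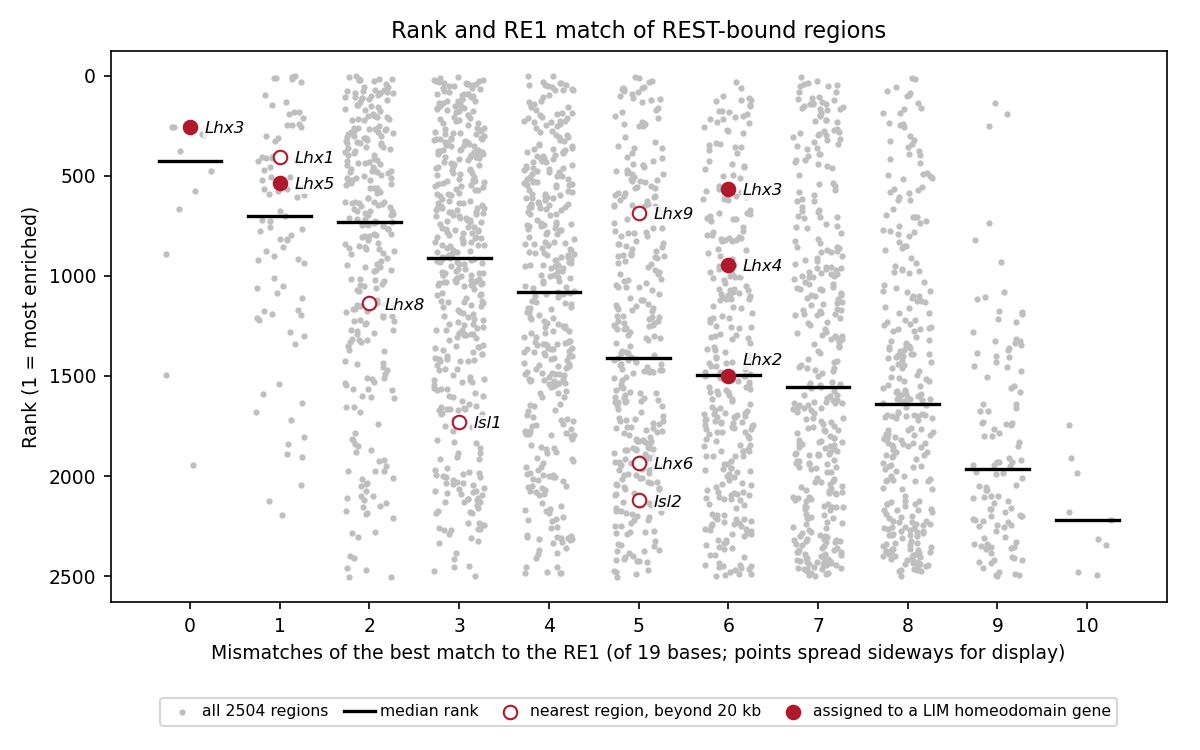
Rank of each of the 2504 regions (1, the most enriched, at the top) against the number of mismatches of its best match to the RE1; points are spread sideways for display and bars give the median rank. Filled circles are the 5 regions assigned to LIM homeodomain genes and open circles the nearest regions of the other 6 genes; the median rank runs from 427.5 at 0 mismatches to 2221 at 10.

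Ranks of the 5 assigned regions were 257, 536, 567, 944 and 1498, a median of 567, beside a median of 1248 over the 1845 regions assigned to any protein-coding gene by the same rule. Of the 5, 4 were among the 1252 best ranked regions. The nearest regions of the other 6 genes had ranks from 406 to 2122, with a median of 1434.5, and 3 were among those 1252. A full RE1 was present in 2 of the 5 assigned regions and in all 6 of the nearest ones, beside 58.1% of all listed regions and 0.923% of flanking windows. This difference hung on the limit of 5 mismatches. The 3 assigned regions without a full RE1 had best matches with 6 mismatches, and the nearest regions of Lhx6, Lhx9 and Isl2 had 5. At most 6 mismatches were found in 69.8% of all listed regions. The assigned regions at Lhx2, Lhx4 and the Lhx3 intron, without a full RE1, were the 3 whose midpoint lay inside the gene they were assigned to.

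In CpG and GC content the 5 assigned regions all lay above the medians over regions assigned to any gene. They had 4.09 to 6.92 CpG dinucleotides per 100 bp, all above the median of 1.76 over regions assigned to any gene, with the lowest at the Lhx3 promoter and the highest in the Lhx2 exon. GC content ran from 53.2% at Lhx4 to 62.7% at Lhx2, beside a median of 52.4%, and widths from 260 to 342 bp beside a median of 265 bp. The nearest regions of the other 6 genes ranged more widely, from 0.369 CpG per 100 bp for Lhx9 to 6.67 for Isl2.

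To ask whether the genes held RE1s outside the listed regions, both strands of each gene with 20 kb around its start sites, 468.297 kb in all, were searched. There were 2 matches with at most 3 mismatches, the RE1s at the Lhx3 promoter and upstream of Lhx5 described above, and both were in listed regions. Over the genome, 62.5% of 1295 such matches were in listed regions. The share fell from 94.4% at 1 mismatch to 49.5% at 3 mismatches. These shares were not independent of the list, since the consensus came from listed regions. Another 15 matches with 4 or 5 mismatches lay around 9 of the 10 genes, and none was in a listed region, beside 8.62% of matches with 4 mismatches over the genome and 1.02% of those with 5. Of these, 2 had 4 mismatches, 1 at Lhx2 (2.188 kb upstream of a TSS) and 1 at Lhx3 (0.542 kb upstream of the start of a shorter transcript). The match nearest to a start site was at Lhx9, 0.169 kb upstream, with 5 mismatches. Isl2 had no match. Matches with at most 5 mismatches occurred at 3.63 per 100 kb around the 10 genes and at 1.71 per 100 kb over the genome. The base composition of the loci was not taken into account.

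Lmx1a and Lmx1b, which are LIM homeodomain genes outside the list of 10, and relatives and cofactors of the family were examined by the same rule. Of these 12 genes, 2 had a region, beside 10.1% of all genes, and neither region held a full RE1. Ldb2, which encodes an adaptor that binds LIM domains, had a region of rank 2285 in the gene, 270.05 kb from the nearest TSS, with no match. Lmo3, which encodes a protein made of LIM domains without a homeodomain, had a region of rank 2367, 1.557 kb upstream, with a left element. Lmx1a, Lmx1b, Ldb1 and the other genes of that list had none. Both of these ranks were below those of every region assigned to the 10 genes.

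The counts of the next lists stand beside 10.1% of all protein-coding genes with a region and 5.81% with a full RE1 in it. Of 15 motor neuron and V2 interneuron genes, 1 had a region: Chat, which encodes the enzyme that makes acetylcholine, had one of rank 728 at 1.889 kb upstream, with an RE1 of 3 mismatches. Mnx1 and Olig2, transcription factor genes of that list, had none. None of 11 pituitary genes had a region. Of 12 ventral forebrain genes, 3 had a region, each with a full RE1. Gad1, which encodes an enzyme of GABA synthesis, had one of rank 292 with an RE1 without mismatch. Sst, the somatostatin gene, had one of rank 732, and Satb1, a chromatin organiser gene of interneurons, had one of rank 2369. None of the Dlx genes of that list nor Nkx2-1 had one.

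Among 135 homeobox and Pax genes of other families, 16 (11.9%) had a region, and 12 of these had a full RE1 in it. The best ranked were at Nkx1-1 (rank 36), Barhl1 (rank 44), Pou2f2 (rank 189) and Meis3 (rank 256), each ranked above the Lhx3 promoter region. Meis3 had an RE1 with 1 mismatch, as Lhx5 did. The LIM homeodomain genes, with 4 of 10, stood beside this share. The lists are small and were not tested against each other.

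**Figure D5:**
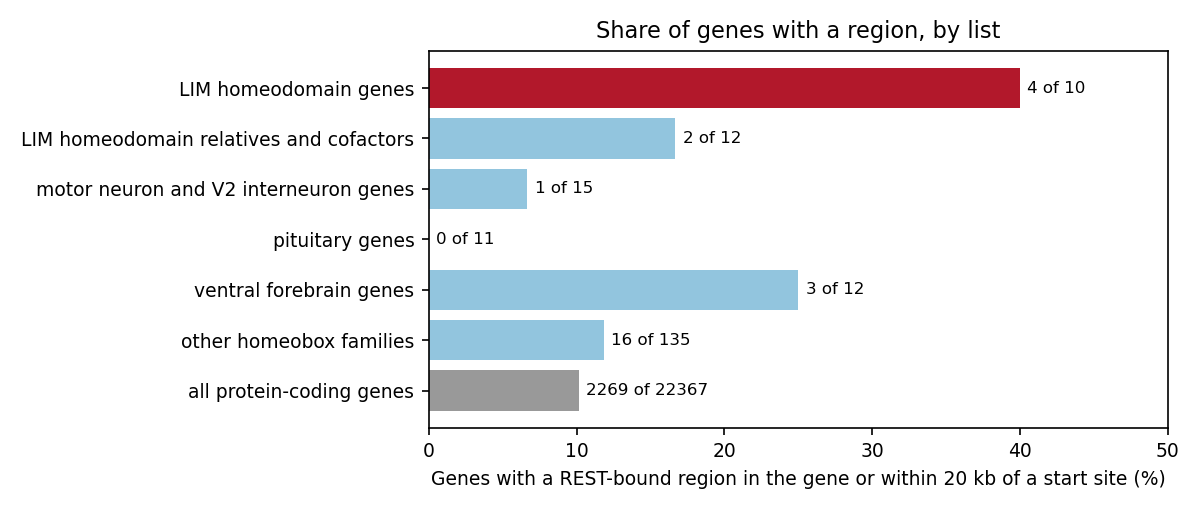
Percentage of genes with a REST-bound region in the gene or within 20 kb of a start site, for the LIM homeodomain genes (red), the 5 other lists (blue) and all protein-coding genes (grey), with counts beside the bars. The bar of the LIM homeodomain genes is at 40%, and that of all protein-coding genes at 10.1%.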

How the data were processed

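ChIP DNA of the technical and biological replicates was pooled by the authors into 1 library, which was run on the Illumina Genome Analyzer II. The study's methods name Bowtie, with uniquely mapped reads only, and the processing notes of the submitters name BWA and the mm9 build. Tool versions are not given in the sources used here. PeakRanger and MACS served as peak callers, and by the study's methods the peaks found by both were retained. The deposited list is longer than the set of regions the study describes, so it may not be that overlap. The deposited list holds positions and a rank made by the authors, with no height or significance, so ranks were used only to order regions. RE1s in sequence where reads do not map uniquely could be missing from it.

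Starts were read as counting from 0. The sequence was NCBIM37 (the chromosomes of mm9) with GENCODE M1. Distances ran from region midpoints to TSSs of all transcripts of a gene. The RE1 consensus was derived from the 500 best ranked regions that belonged to no LIM homeodomain gene, of which 383 aligned, and was searched on both strands with at most 5 mismatches in 19 bases. Single elements were allowed 1 mismatch. Regions were given the first class that applied: full RE1, both elements at a wider gap, left element, right element. Flanking windows lay 2 kb away on each side and overlapped no listed region.

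The members and gene lists were chosen with earlier results of these data known, and no test was made over them. The genes named were all 10 members, every relative or cofactor with a region, up to 4 genes of each other list with the best ranked region, and genes nearest to a region. Rapgef1 and Unc79 and the genes without a region that the text gives as examples were chosen after their values were seen. Slc18a3 was not found in the annotation by symbol, and 1 listed gene is not reported here by name. Protein sequences were not used here. The search was tested on simulated data. Calculations used Python 3.11.15, numpy 2.4.6 and scipy 1.17.1.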

Additional observations from a re-analysis of the deposited data

How the results depend on the processing

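The number of LIM homeodomain genes with a region was 3 or 4, and of their regions 4 to 6, under each alternative tried. With 5 kb in place of 20 kb, and regions inside the gene still counted, Lhx5 was lost. Lhx2 and Lhx4 stayed only because their regions lay inside the gene, at 16.455 and 19.638 kb from the nearest TSS. With only the 1252 best ranked regions Lhx2 was lost. The share of all protein-coding genes was 6.4% at 5 kb and 17.1% at 50 kb, each with regions inside the gene also counted. It was 8.84% when only a distance of 20 kb to a TSS counted and 5.36% with only the 1252 best ranked regions. With at most 6 mismatches, 4 genes had a full RE1, as Lhx2 and Lhx4 joined Lhx3 and Lhx5, but 4.17% of flanking windows then had one, beside 0.923% at 5 mismatches. With at most 3 mismatches, with regions extended by 100 bases and with starts counted from 1, the same 2 genes had one. No paired analysis was possible because the 1 library analysed had no replicates. For the same reason neither the ranks nor the presence of a region could be given an error, and a region absent from the list may have been missed at this depth.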

Other observations

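All 3 genes of the Pou4f family, which encode POU homeodomain factors that act with LIM homeodomain factors in sensory and retinal neurons, had a region under the same rule, beside 10.1% of all protein-coding genes. They were singled out after their values were seen, and no test was made. Pou4f2 had regions of ranks 402 and 984, Pou4f3 one of rank 633 and Pou4f1 one of rank 1200. Each of the 4 regions held a full RE1, with 2 to 4 mismatches, beside 58.1% of all listed regions with a full RE1. Isl1, which is known to act with Pou4f1 in sensory neurons and with Pou4f2 in retinal ganglion cells, had its nearest region at 1056.94 kb.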
